A study of Mus musculus with 18 samples.

Results

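The smooth muscle contractile genes described here are 33 genes whose proteins form, anchor or regulate the contractile apparatus of smooth muscle. They were chosen by name from a list of such genes, and all 33 were found among the 23356 genes of the deposited table. Expression was measured by RNA sequencing of whole lung from male C57BL/6 mice in 6 groups of 3 libraries, numbered 0 to 2. The mice were wild type, β-arrestin 1 -/- or labelled β-arrestin 2 -/-, and of each genotype 1 group was kept in normoxia and 1 in hypoxia for 4 weeks. They entered at 8 to 12 weeks of age and were 12 to 16 weeks old when sampled. Normoxia was normal altitude with an oxygen pressure (labelled PAO2) of about 150 mmHg, and hypoxia was the air pressure of 18000 feet with about 70 mmHg. β-Arrestins bind activated G protein-coupled receptors, uncouple them from G proteins and connect them to other signalling proteins. How the alleles were made, and in which cells they act, is not given in the sources used here, and neither is whether each library stands for a separate animal. The p-values therefore measure the spread among these libraries.

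Smooth muscle contracts when calcium and calmodulin activate myosin light chain kinase, which phosphorylates the regulatory light chain and lets myosin pull on thin filaments of actin and tropomyosin. In the lung this machinery lies in the walls of pulmonary arteries and veins, in airway muscle and in scattered myofibroblasts. Many of its genes are switched on by serum response factor, encoded by Srf, which binds a short promoter element called the CArG box and is helped by the cofactor myocardin, and chronic hypoxia is known to bring muscle to small pulmonary arteries that normally have little. Some of the genes are not particular to smooth muscle: Des, Jph2, Tpm1, Nexn and Hspb6 are also active in heart muscle, and Actn1, Flna, Vcl, Myl6 and Cnn2 in many cell types.

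A CArG box is CC, a core of 6 bases that are each A or T, and GG, and it reads the same way on both strands. RefSeq promoters on GRCm38.p6, from 250 bases before the start of transcription to 50 after it, were matched by symbol for 27 of the 33 genes. Aoc3, Myocd, Tagln, Nexn, Myh11 and Actg2 had no entry. An exact CArG box was found in 5 of these 27 genes (18.5%), namely Myl9, Cnn2, Myl6, Vcl and Srf, and in 1.81% of all 27025 genes with a promoter (1.63% of 32851 promoters). A looser match, with 1 G or C in the core, was found in 6 of the 27 (22.2%), namely Acta2, Myl9, Jph2, Pcp4l1, Hspb6 and Synm, against 9.69% of all genes (8.5% of promoters). A match is a description of letters and not a binding site. The promoters of 4 genes are shown because Srf and Acta2 changed in the comparisons that follow and Myl9 and Cnn2 carry exact matches; exact and looser matches are in capitals, and each promoter is written 5′ to 3′ on the strand of its gene.
Srf (chr17:46556113-46556412, minus strand): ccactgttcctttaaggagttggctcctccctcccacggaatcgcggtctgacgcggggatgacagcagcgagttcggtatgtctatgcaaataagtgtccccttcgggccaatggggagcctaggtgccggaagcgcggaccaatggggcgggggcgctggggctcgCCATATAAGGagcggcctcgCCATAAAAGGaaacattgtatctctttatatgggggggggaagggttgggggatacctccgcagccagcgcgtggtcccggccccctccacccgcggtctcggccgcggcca
Acta2 (chr19:34255324-34255623, minus strand): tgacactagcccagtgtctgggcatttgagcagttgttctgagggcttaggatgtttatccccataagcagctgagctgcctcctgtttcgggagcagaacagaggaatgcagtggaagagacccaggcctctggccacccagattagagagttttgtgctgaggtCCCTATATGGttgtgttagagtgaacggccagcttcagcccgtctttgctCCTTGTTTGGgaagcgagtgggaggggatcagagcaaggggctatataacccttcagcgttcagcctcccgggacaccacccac
Myl9 (chr2:156775214-156775513, plus strand): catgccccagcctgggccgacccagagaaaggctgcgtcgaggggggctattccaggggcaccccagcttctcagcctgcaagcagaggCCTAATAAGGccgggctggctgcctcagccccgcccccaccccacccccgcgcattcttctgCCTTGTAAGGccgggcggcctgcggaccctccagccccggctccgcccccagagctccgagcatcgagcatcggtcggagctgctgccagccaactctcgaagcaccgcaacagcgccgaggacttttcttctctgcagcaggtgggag
Cnn2 (chr10:79988350-79988649, plus strand): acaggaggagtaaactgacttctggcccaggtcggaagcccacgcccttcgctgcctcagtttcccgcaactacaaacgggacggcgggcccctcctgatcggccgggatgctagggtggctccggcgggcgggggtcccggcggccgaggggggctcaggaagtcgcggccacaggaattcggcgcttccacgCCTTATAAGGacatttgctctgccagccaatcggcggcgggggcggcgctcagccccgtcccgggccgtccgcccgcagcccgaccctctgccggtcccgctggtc
Srf itself carried a pair of exact boxes, which began 82 and 62 bases before its start. Acta2 carried a pair of looser matches, which began 84 and 34 bases before its start, and Myl9 carried 1 exact and 1 looser match. The only match of Cnn2 was exact and began 56 bases before its start.

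All 33 genes passed the filter on low counts in the table of 15388 genes tested. Levels can be compared between genes per length, as FPKM, in which fragments are scaled to gene length and library size. The mean over 18 libraries ran from 0.626 FPKM for Myocd, which encodes myocardin, to 428.4 for Csrp1, a LIM protein that binds α-actinin. The next highest were Tpm1 (tropomyosin 1, 410.8 FPKM), Ppp1r14a (the myosin phosphatase inhibitor CPI-17, 313.9) and Tagln (the actin-binding protein transgelin, 255.0). The length implied by the fragments and FPKM of Ppp1r14a was 369 bases, the shortest of the members, and its rank rests on that length. Acta2, smooth muscle α-actin, had 142.2 FPKM, Actg2, the smooth muscle γ-actin, 34.84, and Myh11, the smooth muscle myosin heavy chain, 38.16. The genes differed in how much they varied over the 18 libraries: the highest library exceeded the lowest 7.09-fold for Cnn1 and 6.21-fold for Actg2, but 1.55-fold for Csrp1 and 1.65-fold for Mylk. Of the sequence of Myl6, 16.7% of 50-base words occurred also in transcripts of other genes, 3.79% for Aoc3 and under 0.5% for the other members, so the level of Myl6 is uncertain. Tagln overlaps Pcsk7, Tpm2 overlaps Car9, Hspb6 overlaps Lin37, Vcl overlaps Ap3m1 and Pgm5 overlaps Tmem252 in the annotation, and the libraries carry no strand to part them.

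Library totals were between 16806806 and 25980876 estimated fragments, and the members took 0.582% to 0.80% of the fragments in 17 libraries. Labelled β-arrestin 2 -/- normoxia replicate 0 stood apart with 1.07%. It was the highest of the 18 libraries for 19 of the 33 members, and its 18 cardiac muscle markers (Myh6, Tnnt2, Sln and others, from heart or the muscle sleeves of pulmonary veins) summed to 8010 CPM (counts scaled to library size), against 79.9 to 3560 in the other libraries. β-Arrestin 1 -/- hypoxia replicate 2, with the lowest total, was the lowest of 18 for 11 members and the highest for 4, and these followed gene length: against the other libraries of its group its median log2 difference was -0.62 for the longest 11 members and 0.14 for the shortest 11. Arrb1 was lower than in wild type in the β-arrestin 1 -/- libraries (log2 change -2.18 in normoxia, -2.07 in hypoxia). It was also called lower in labelled β-arrestin 2 -/- normoxia than in wild type normoxia (-0.70 ± 0.12, adjusted p = 0.00435), but not in hypoxia (-0.02 ± 0.12, adjusted p = 0.986). Arrb2 was not called lower in the libraries labelled β-arrestin 2 -/- (0.33 in normoxia, adjusted p = 0.256; -0.18 in hypoxia, adjusted p = 0.821), so that label goes against the level of the gene and is used from here on only as the name of these libraries. Whole lung was measured, so fewer smooth muscle cells and less RNA per cell cannot be told apart.

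Hypoxia was compared with normoxia within each genotype. In wild type lung, 3 of 33 members rose and 0 fell, beside 4.76% of all genes called in either direction and 2.85% called higher (adjusted p below 0.05 in the quasi-likelihood test of edgeR, with the adjustment of Benjamini and Hochberg). The 3 were Pcp4l1, Aoc3 and Jph2. The median log2 change of the members was 0.31, with 29 of 33 above 0, while the median of all genes was 0.00. In 15 members every hypoxic library lay above every normoxic one, and in 1 below, where 13.3% and 11.5% of all genes did so. In β-arrestin 1 -/- lung 0 members were called, beside 2.95% of all genes; 5 had an unadjusted p below 0.05, DESeq2 called 0, and the median was -0.07. In the libraries labelled β-arrestin 2 -/-, 7 members fell and 0 rose, beside 21.9% of all genes called in either direction and 10.8% called lower, and the median was -0.25. The 7 were Acta2, Actg2, Cnn1, Tagln and Tpm2 of the thin filament, Csrp1 and Srf. Without normoxia replicate 0 the median turned to 0.03, with 18 of 33 above 0, and 5 members fell and 2 rose (Lmod1 and Aoc3), while 1868 genes in all were called in place of 3370. In 10 members every hypoxic library lay below every normoxic one, and in 3 above, where 25.3% and 22.6% of all genes did so.

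**Figure D1:**
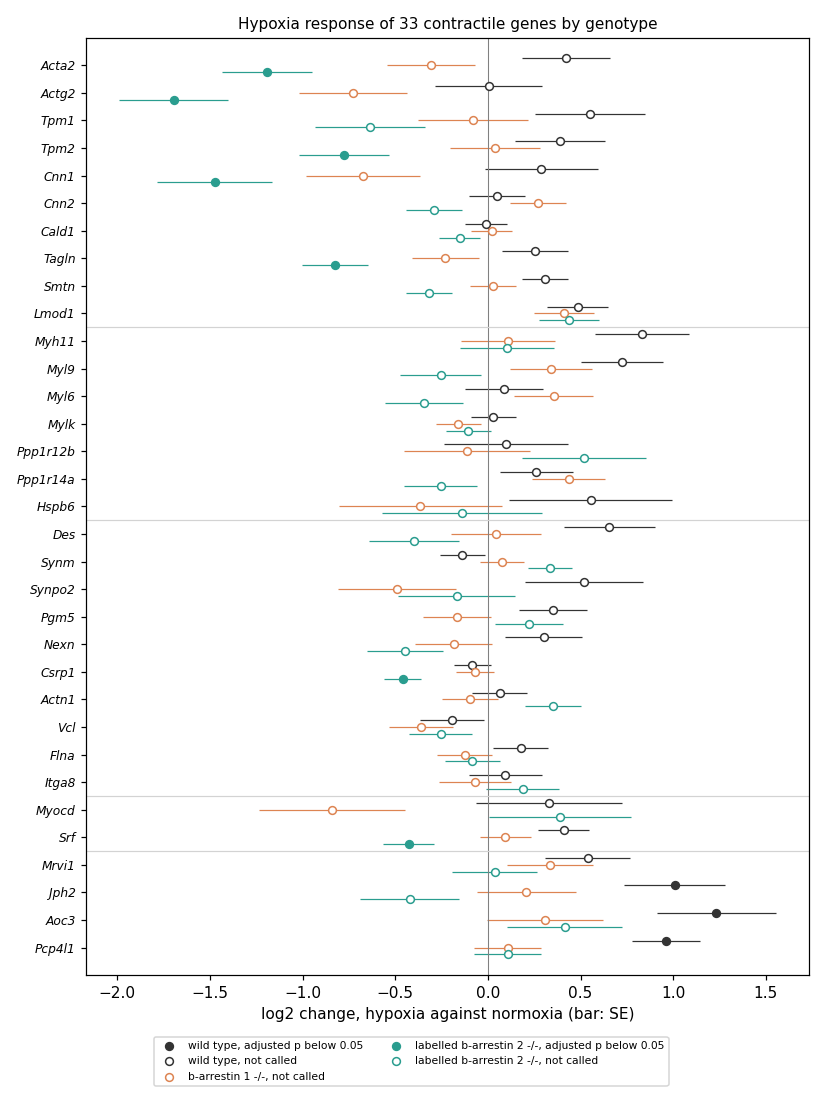
Log2 change between hypoxia and normoxia (x axis) of the 33 genes in each genotype, with SE from the edgeR fit; filled points have an adjusted p below 0.05. In wild type (dark) 29 of 33 points lie above 0, and in the libraries labelled β-arrestin 2 -/- (green) the thin filament genes Actg2, Cnn1 and Acta2 lie farthest below 0.

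Among thin filament genes, the smooth muscle actins differed between the genotypes. Levels of a gene across libraries are given in CPM, in the order of replicates 0 to 2. Acta2 stood at 292, 314 and 263 CPM in wild type normoxia and 384, 300.4 and 480.4 in hypoxia, at 428, 361 and 367 and 309, 361 and 266 in β-arrestin 1 -/-, and at 979.7, 489 and 444 and 302, 251 and 285 in the libraries labelled β-arrestin 2 -/-. In the last pair the groups did not overlap and the normoxic ones were high, replicate 0 above all. The β-arrestin 1 -/- groups did not overlap either, though narrowly (normoxia from 361.0 CPM, hypoxia up to 360.6), and the wild type groups overlapped. The log2 change with hypoxia was 0.42 ± 0.24, adjusted p = 0.356 in wild type, -0.30 ± 0.24, adjusted p = 0.514 in β-arrestin 1 -/- and -1.19 ± 0.24, adjusted p = 0.00361 in the libraries labelled β-arrestin 2 -/- (each ± SE). The last was a fall to 0.438 of the normoxic level, and without normoxia replicate 0 it was -0.73 ± 0.17, adjusted p = 0.0133. Actg2, an actin of visceral and vascular muscle, had 35.2, 41.4 and 29.4 CPM in wild type normoxia and 35.9, 26.1 and 44.3 in hypoxia. In β-arrestin 1 -/- it had 57.4, 39.8 and 39.1 and then 29.5, 29.2 and 23.5, and in the libraries labelled β-arrestin 2 -/- 146, 65.3 and 63.6 and then 35.2, 25.6 and 23.9. In both of the latter the hypoxic libraries were all below the normoxic ones, whereas those of wild type were interspersed. The log2 change was 0.00 ± 0.29, adjusted p = 0.996 in wild type, -0.73 ± 0.29, adjusted p = 0.203 in β-arrestin 1 -/- and -1.70 ± 0.29, adjusted p = 0.00141 in the libraries labelled β-arrestin 2 -/- (without normoxia replicate 0, -1.19 ± 0.23, adjusted p = 0.00493).

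Calponin 1 (Cnn1), an actin-binding inhibitor of the myosin motor, followed the actins. It stood at 64.2, 77.3 and 53.2 CPM in wild type normoxia and 77.3, 65.5 and 94.7 in hypoxia, and at 108, 78.4 and 71.9 and 49.1, 67.6 and 44.7 in β-arrestin 1 -/-. In the libraries labelled β-arrestin 2 -/- it went from 316, 136 and 114 to 81.7, 61.3 and 60.9. Only the wild type groups overlapped. Its log2 change was 0.29 ± 0.30, adjusted p = 0.688, -0.68 ± 0.31, adjusted p = 0.263 and -1.48 ± 0.31, adjusted p = 0.00448 in the 3 genotypes in that order, and -0.88 ± 0.22, adjusted p = 0.0204 in the last without normoxia replicate 0. Tagln went from 835, 489.6 and 481 CPM to 367, 325 and 328 in the libraries labelled β-arrestin 2 -/-. It had 341, 367 and 301 CPM in wild type normoxia and 381, 342 and 479 in hypoxia, and 421, 338 and 403 and 338, 323 and 330.0 in β-arrestin 1 -/-. The groups were apart in the libraries labelled β-arrestin 2 -/-, where the hypoxic ones were lower, and overlapped in the other genotypes, narrowly so in β-arrestin 1 -/-. The fall in the libraries labelled β-arrestin 2 -/- was -0.82 ± 0.18, adjusted p = 0.00556, and -0.51 ± 0.13, adjusted p = 0.0246 without normoxia replicate 0. Tropomyosin 2 (Tpm2), which lies along the actin filament, had 255, 131 and 118 CPM in normoxia and 112, 93.4 and 89.1 in hypoxia there. The groups did not overlap, but the change of -0.78 ± 0.24, adjusted p = 0.0325 became -0.34 ± 0.18, adjusted p = 0.237 without normoxia replicate 0, and the call was also lost without hypoxia replicate 0, 1 or 2 (adjusted p = 0.0572, 0.0893 and 0.102). Each of the 6 fits that left out 1 library of these groups kept the calls of Acta2, Actg2, Cnn1, Tagln and Csrp1.

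The thin filament genes did not all go the same way. Leiomodin 1 (Lmod1), which nucleates actin filaments in smooth muscle, was on average higher in hypoxia in each genotype. It stood at 33.2, 39.9 and 30.8 CPM in wild type normoxia and 52, 40.8 and 52.5 in hypoxia, at 33.5, 35 and 36.3 and 49.4, 47.3 and 42.4 in β-arrestin 1 -/-, and at 60.4, 38 and 36 and 62.4, 58.5 and 61 in the libraries labelled β-arrestin 2 -/-. The groups did not overlap in wild type and β-arrestin 1 -/-. In the libraries labelled β-arrestin 2 -/- the high value of normoxia replicate 0 fell among the hypoxic ones. The changes were 0.48 ± 0.16, adjusted p = 0.106, 0.41 ± 0.16, adjusted p = 0.202 and 0.44 ± 0.16, adjusted p = 0.0634, and 0.72 ± 0.13, adjusted p = 0.00298 in the last without normoxia replicate 0. The other thin filament genes were not called with hypoxia in a single genotype. Tpm1 changed by 0.55 ± 0.30, adjusted p = 0.331 in wild type and -0.63 ± 0.30, adjusted p = 0.131 in the libraries labelled β-arrestin 2 -/-, and by 0.01 ± 0.19, adjusted p = 0.976 in the latter without normoxia replicate 0. Smoothelin (Smtn), a marker of contractile smooth muscle, changed by 0.31 ± 0.12, adjusted p = 0.18 and -0.32 ± 0.12, adjusted p = 0.0784, and the more widely expressed Cald1 and Cnn2 by -0.29 to 0.27 over the 3 genotypes.

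**Figure D2:**
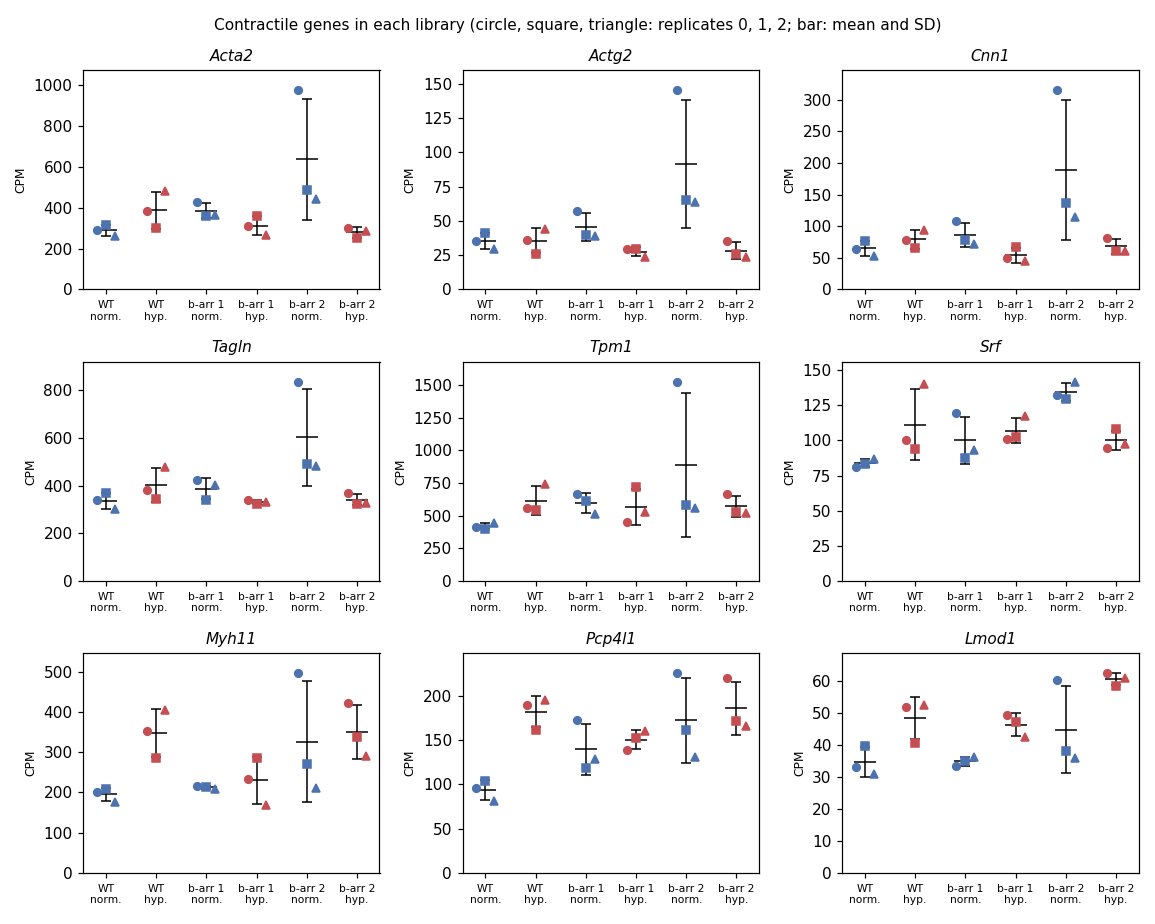
CPM (y axis, from 0) of 9 contractile genes in each library of the 6 groups (x axis; norm., normoxia, blue; hyp., hypoxia, red; b-arr, β-arrestin), with the mean and SD of 3. The circle of labelled β-arrestin 2 -/- normoxia, replicate 0, stands far above the other libraries for Acta2 (979.7 CPM), Actg2, Cnn1, Tagln and Tpm1, but not for Srf.

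Of the 7 genes of myosin and its regulation, 0 were called with hypoxia in any genotype, and in wild type all 7 had a log2 change above 0. Myh11 stood at 202, 208 and 176 CPM in wild type normoxia and 353, 285 and 404 in hypoxia, with all hypoxic libraries above the normoxic ones (0.83 ± 0.25, adjusted p = 0.0747). In β-arrestin 1 -/- it had 216, 213 and 209.6 and 234, 286 and 169, and in the libraries labelled β-arrestin 2 -/- 496, 271 and 211 and 421, 338 and 290.3. Both of these pairs of groups overlapped (0.11 ± 0.25, adjusted p = 0.851 and 0.10 ± 0.25, adjusted p = 0.796). Without normoxia replicate 0 the last change was 0.55 ± 0.21, adjusted p = 0.0951. The 169 CPM of β-arrestin 1 -/- hypoxia is replicate 2, the library in which long members were low. Myh11 there was -0.62 on the log2 scale against the mean of replicates 0 and 1. These, at 234 and 286 CPM, lay above the normoxic libraries of that genotype. The regulatory light chain gene Myl9 had 98.8, 111 and 96.7 CPM in wild type normoxia and 154, 145 and 207 in hypoxia, again without overlap (0.72 ± 0.22, adjusted p = 0.0737). Mylk, the kinase that phosphorylates it, varied little, by 0.03 ± 0.12, adjusted p = 0.946 in wild type and -0.11 ± 0.12, adjusted p = 0.552 in the libraries labelled β-arrestin 2 -/-. Ppp1r12b, a targeting subunit of myosin phosphatase, Ppp1r14a, the light chain Myl6 and the small heat shock protein Hspb6 were likewise not called.

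Among the 10 genes of intermediate filaments, dense bodies and adhesion plaques, Csrp1 was the 1 called with hypoxia in a genotype. It stood at 765, 821 and 933 CPM in labelled β-arrestin 2 -/- normoxia and 631, 601 and 599 in hypoxia, where all 3 libraries lay below the others of the series. The fall was -0.46 ± 0.10, adjusted p = 0.00577 and hardly depended on normoxia replicate 0, which was the lowest of its group (-0.52 ± 0.11, adjusted p = 0.00735 without it). In wild type it had 733, 790.3 and 828 CPM in normoxia and 710.3, 686 and 822 in hypoxia, and in β-arrestin 1 -/- 797, 796 and 845 and 728, 731 and 864. Both pairs overlapped (-0.08 ± 0.10, adjusted p = 0.738 and -0.07 ± 0.10, adjusted p = 0.751). Desmin (Des), the muscle intermediate filament protein, had 194, 187 and 169 CPM in wild type normoxia and 279, 248 and 338 in hypoxia. These groups did not overlap, yet the change missed the threshold (0.65 ± 0.24, adjusted p = 0.146). Vcl (vinculin) was below 0 in all 3 genotypes, from -0.36 to -0.20, and was not called. The others (Synm, Synpo2, Pgm5, Nexn, Actn1, Flna and Itga8) were between -0.49 and 0.52 and not called.

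The regulators of transcription differed from one another. Srf stood at 81.2, 83.5 and 87 CPM in wild type normoxia and 100, 93.8 and 140.1 in hypoxia, at 119, 87.8 and 93.1 and 101, 103 and 117 in β-arrestin 1 -/-, and at 132, 129.6 and 142 and 94.5, 108 and 97.7 in the libraries labelled β-arrestin 2 -/-. The last 2 groups were apart, and here replicate 0 was within its group. The change was 0.41 ± 0.14, adjusted p = 0.104 in wild type, 0.09 ± 0.14, adjusted p = 0.746 in β-arrestin 1 -/- and -0.43 ± 0.14, adjusted p = 0.0347 in the libraries labelled β-arrestin 2 -/-. This call was lost whichever of the 6 libraries was left out (adjusted p = 0.0528 to 0.122; 0.0808, 0.0638 and 0.0982 without normoxia replicates 0 to 2, and 0.122, 0.0528 and 0.0949 without hypoxia replicates 0 to 2). Myocd was low, with 2.94, 2.39 and 2.25 CPM in wild type normoxia and 3.95, 2.37 and 3.21 in hypoxia, 5.13, 3.64 and 3.72 and 2.2, 3.49 and 1.19 in β-arrestin 1 -/-, and 6.29, 2.62 and 2.02 and 5.55, 3.84 and 4.79 in the libraries labelled β-arrestin 2 -/-. The hypoxic β-arrestin 1 -/- libraries were all below the normoxic ones, and the other pairs overlapped. None of its changes was called (0.33 ± 0.39, adjusted p = 0.734, -0.84 ± 0.39, adjusted p = 0.278 and 0.39 ± 0.38, adjusted p = 0.481).

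The called rises of wild type hypoxia lay in the group of signalling and other genes, where 3 of 4 were called and all 4 were without overlap. Rises without overlap were not particular to this group, and 13.3% of all genes had them. They were also seen in 4 thin filament genes and 3 genes of myosin and its regulation. A further 3 were genes of intermediate filaments, dense bodies and adhesion plaques, and 1 was a gene of transcription. Pcp4l1, a small protein related to the calmodulin-binding protein PCP4, had 95.5, 104 and 81.2 CPM in normoxia and 189, 162 and 195 in hypoxia, a rise of 0.96 ± 0.18, adjusted p = 0.0075. It was the member that kept its call in all 6 fits that left out 1 wild type library. Aoc3, the vascular amine oxidase of smooth muscle and fat cells, had 6.92, 5.64 and 5.48 CPM in normoxia and 13.6, 12.4 and 16.4 in hypoxia (1.23 ± 0.32, adjusted p = 0.0395). Jph2, which ties the surface membrane to the calcium store, had 43.8, 38.2 and 44.3 and 78.6, 82.6 and 92.4 CPM (1.01 ± 0.27, adjusted p = 0.0454). The calls of Aoc3 and Jph2 were lost in each fit that left out 1 library, so 1 member was called without any of wild type normoxia replicates 0, 1 and 2 or wild type hypoxia replicates 0, 1 and 2 (adjusted p of 0.0524 to 0.155 for Aoc3 and 0.0547 to 0.184 for Jph2), while 209 to 943 genes in all were called in these fits. Mrvi1, a substrate of cGMP-dependent kinase, changed by 0.54 ± 0.23, adjusted p = 0.207. In β-arrestin 1 -/- lung the 4 genes changed by 0.11 to 0.33, and in the libraries labelled β-arrestin 2 -/- by -0.42 to 0.41, with no call. Without normoxia replicate 0 of the latter, Aoc3 rose (0.99 ± 0.26, adjusted p = 0.0225) and the change of Jph2 was 0.09 ± 0.20, adjusted p = 0.806.

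Averaged over the 3 genotypes, 3 members were called higher with hypoxia and 3 lower, beside 19.4% of all genes called, 10.4% higher and 8.94% lower. Lmod1 (0.44 ± 0.09, adjusted p = 0.00371), Aoc3 (0.65 ± 0.18, adjusted p = 0.0195) and Pcp4l1 (0.39 ± 0.10, adjusted p = 0.0154) were higher. Actg2 (-0.81 ± 0.17, adjusted p = 0.00324), Cnn1 (-0.62 ± 0.18, adjusted p = 0.0212) and Csrp1 (-0.20 ± 0.06, adjusted p = 0.0219) were lower. These 6 calls were each kept in all 18 fits that left out 1 library, but they average genotypes that were not alike. With all libraries, Actg2, Cnn1 and Csrp1 were called lower in the libraries labelled β-arrestin 2 -/- alone (-1.70, -1.48 and -0.46). For Actg2 and Cnn1 this response was also called lower than that of wild type. Pcp4l1 and Aoc3 were called in wild type alone, and Lmod1 in no single genotype. Without labelled β-arrestin 2 -/- normoxia replicate 0 the count for the average rose from 6 to 12 members, while 2807 genes in all were called in place of 2980.

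The balance between members was described as the ratio of their FPKM to that of Myh11, a measure chosen after the values were seen and given without a test. For Acta2 this ratio was 3.91, 4.09 and 4.03 in wild type normoxia and 2.95, 2.85 and 3.21 in hypoxia. In β-arrestin 1 -/- it was 5.35, 4.58 and 4.73 and 3.57, 3.41 and 4.24, and in the libraries labelled β-arrestin 2 -/- 5.35, 4.88 and 5.7 and 1.94, 2 and 2.66. The hypoxic ratios were lower than the normoxic ones in each genotype with no overlap, and replicate 0 of labelled β-arrestin 2 -/- normoxia (5.35) lay within its group. For Actg2 the ratio was 1, 1.15 and 0.962 and then 0.586, 0.527 and 0.632 in wild type, and 1.7, 1.39 and 1.74 and then 0.483, 0.436 and 0.475 in the libraries labelled β-arrestin 2 -/-. For Cnn1 it was 1.14, 1.34 and 1.08 and then 0.788, 0.826 and 0.841 in wild type, and 2.29, 1.81 and 1.95 and then 0.697, 0.651 and 0.754 in the libraries labelled β-arrestin 2 -/-. Acta2, Actg2 and Cnn1 were the 3 of 32 members whose ratio was lower in hypoxia without overlap in all 3 genotypes, where 0.903% of 15180 genes were; 0 members were higher in all 3 (0.145% of genes). Within single genotypes the ratio was lower without overlap for 24 members in wild type, 8 in β-arrestin 1 -/- and 9 in the libraries labelled β-arrestin 2 -/-, where 77.7%, 10.4% and 9.21% of all genes were. The level of Myh11, by which each is divided, moves all ratios of a library together.

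**Figure D3:**
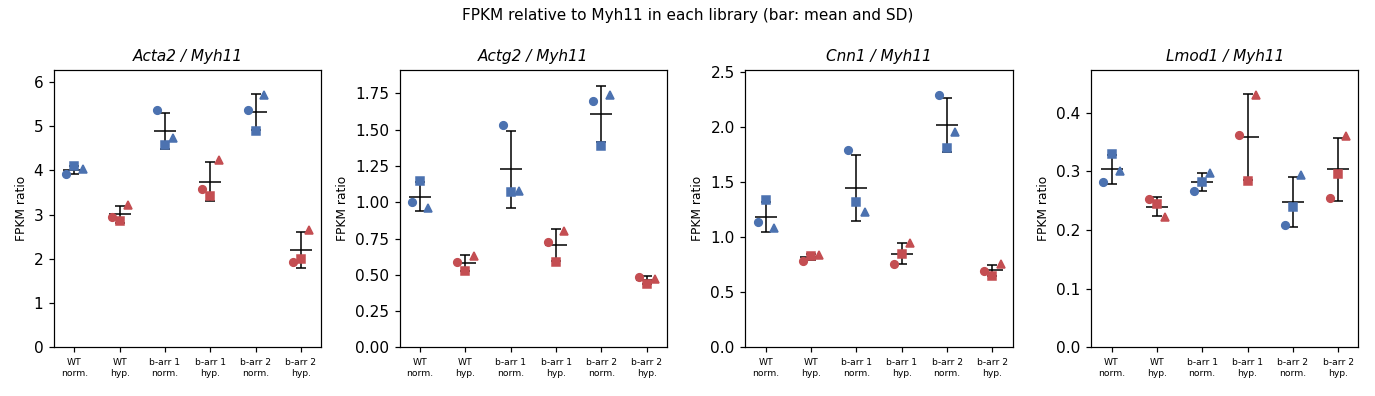
Ratio of the FPKM of Acta2, Actg2, Cnn1 and Lmod1 to that of Myh11 (y axis, from 0) in each library of the 6 groups (x axis; colours and symbols as for the levels by library, with mean and SD of 3). For Acta2, Actg2 and Cnn1 the hypoxic libraries lie below the normoxic ones of each genotype, and for Lmod1 they do not in the lines other than wild type.

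Each line was compared with wild type at the same exposure. These comparisons use the same wild type libraries as the response of wild type lung to hypoxia. In β-arrestin 1 -/- lung 0 members were called in normoxia, beside 0.221% of all genes, and 0 in hypoxia, beside 0.201%; 3 and 2 had an unadjusted p below 0.05, and DESeq2 called 0 in both. The members' median log2 difference was 0.20 in normoxia, with 28 of 33 above 0, and -0.21 in hypoxia, with 6 above 0. The hypoxic group includes β-arrestin 1 -/- replicate 2, the library that was lowest of 18 for 11 members and highest for 4. In the libraries labelled β-arrestin 2 -/-, 14 members were higher and 0 lower than wild type in normoxia, beside 9.49% of all genes called and 4.0% called higher. Their median was 0.63. In hypoxia 0 were called, beside 0.923% of all genes, with 2 at an unadjusted p below 0.05 and 0 by DESeq2.

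The 14 members included 7 of the 10 thin filament genes: Cnn1 (1.54 ± 0.31, adjusted p = 0.0102), Actg2 (1.37 ± 0.29, adjusted p = 0.0126), Acta2 (1.14 ± 0.24, adjusted p = 0.0126), Tpm2, Tpm1, Tagln and Smtn (0.50 to 1.11). The others were Myl9 (0.89 ± 0.22, adjusted p = 0.0242), Des (1.07 ± 0.25, adjusted p = 0.0182), Nexn (0.79 ± 0.21, adjusted p = 0.0304), Srf (0.68 ± 0.14, adjusted p = 0.0102), Jph2 (1.28 ± 0.27, adjusted p = 0.0132), Pcp4l1 (0.88 ± 0.18, adjusted p = 0.0112) and Aoc3 (1.09 ± 0.32, adjusted p = 0.0452). Most of these differences were largest in replicate 0. Jph2 stood at 162, 74.1 and 69.8 CPM, Des at 619.5, 275 and 265, Myl9 at 284, 145 and 139.7, Pcp4l1 at 225, 161 and 131 and Smtn at 131, 106 and 115. Replicates 1 and 2 of these genes, as of Acta2, Actg2, Cnn1, Tagln and Srf, still lay above the 3 wild type normoxic libraries. Without replicate 0, 2 members were called, Cnn1 (0.94 ± 0.22, adjusted p = 0.0429) and Srf (0.69 ± 0.16, adjusted p = 0.0363), and 25 of 33 members were above 0 with a median of 0.29; of all genes 316 were called in place of 1460. Acta2 (0.68 ± 0.17, adjusted p = 0.0539) and Actg2 (0.86 ± 0.23, adjusted p = 0.065) then missed the threshold. The number called was 9, 7 and 7 without wild type normoxia replicates 0, 1 and 2, where 628, 353 and 642 genes in all were called. Both Cnn1 and Srf were called in each of the 6 fits that left out 1 library.

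**Figure D4:**
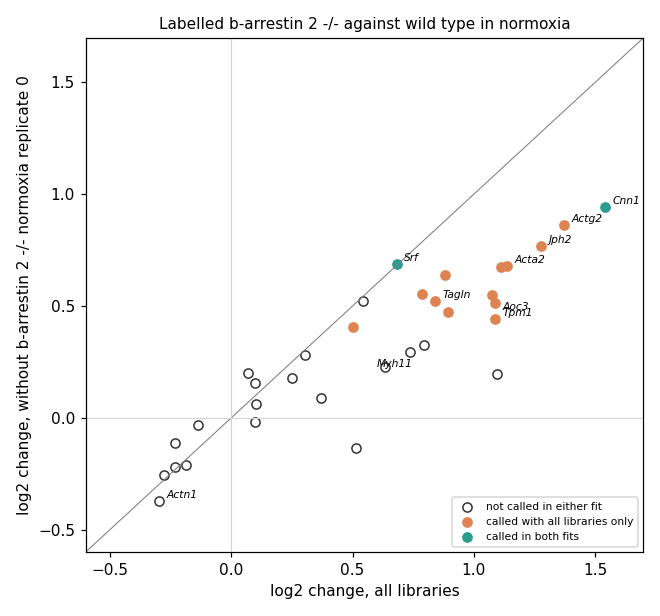
Log2 change of the 33 genes between the libraries labelled β-arrestin 2 -/- and wild type in normoxia, with all libraries (x axis) and without labelled β-arrestin 2 -/- normoxia replicate 0 (y axis); the diagonal marks equal values. Most genes lie below the diagonal, while Srf (0.68 and 0.69) lies on it, and 2 genes were called in both fits.

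The markers of other cell types moved with these groups. In labelled β-arrestin 2 -/- normoxia against wild type, where 9.49% of all genes were called, 6 of 18 cardiac muscle markers, 8 of 9 airway secretory markers, 3 of 7 airway ciliated markers and 2 of 7 skeletal muscle markers rose and none of these fell. There 1 of 14 fibroblast and matrix markers also rose, and 3 of 10 endothelial markers, Vwf, Erg and Pecam1, fell (log2 change -0.78, -0.73 and -0.40). The cardiac markers summed to 577 to 8010 CPM in that group and 79.9 to 473 in wild type normoxia, and the airway secretory markers to 5540 to 12300 and 3650 to 5660. In wild type normoxia replicate 1 the cardiac markers Mybpc3, Sln and Smpx were at 0.0 CPM, and the others of the 18 were above 0. Acta2 in that library was 314 CPM, above replicates 0 and 2. Whether cardiac tissue contributed to the level of Acta2 in any library was not tested. With the cardiac score (the mean log2 CPM of its markers in each library) as a covariate 0 members were called between the libraries labelled β-arrestin 2 -/- and wild type in normoxia, and 0 with the airway secretory score, a covariate chosen after seeing the data. Of all genes 36 and 16 were then called. The airway secretory score was -2.74 to -2.3 in wild type normoxia and 0.0265 to 2.76 in labelled β-arrestin 2 -/- normoxia. The cardiac score was -5.17 to -1.3 and -1.2 to 3.0. Both thus part the 2 groups, so these fits cannot tell the covariate from the group. Calls and sizes did not move alike: Srf was 0.65 ± 0.18, adjusted p = 0.156 with the cardiac score and 0.50 ± 0.22, adjusted p = 0.63 with the airway secretory score, and Cnn1 was 0.87 ± 0.36, adjusted p = 0.365 and 0.21 ± 0.32, adjusted p = 0.808. With hypoxia in wild type, where 4.76% of all genes were called, 5 of 9 airway secretory, 4 of 15 pericyte, 4 of 11 leukocyte, 1 of 14 fibroblast and matrix and 1 of 10 endothelial markers rose. So did 10 of 15 immediate early genes, which respond fast to stimuli and include targets of SRF. Among these were Egr1 (3.67 ± 0.69, adjusted p = 0.0069) and Fos (2.64 ± 0.56, adjusted p = 0.0149), and among the leukocyte markers Cd3e of T cells (1.25 ± 0.25, adjusted p = 0.0112). The immediate early genes summed to 1970 to 2300 CPM in wild type normoxia and 2390 to 7100 in hypoxia, and the leukocyte markers to 184 to 284 and 232 to 383. The airway secretory markers summed to 5310 to 6780 CPM in wild type hypoxia, the pericyte markers to 1310 to 1730 in normoxia and 1980 to 2120 in hypoxia, and the cardiac markers to 1220 to 2220 in hypoxia. With either covariate 0 members were called there, and 76 (cardiac) and 16 (airway secretory) of all genes. Both scores were higher in every hypoxic than in every normoxic wild type library, so the same limit holds. The sums of the airway secretory markers nevertheless overlapped between these groups (3650 to 5660 and 5310 to 6780 CPM). The 5 of them that were called rose by log2 changes of 2.69 (Muc5b) to 8.42 (Reg3g). The part of leukocyte content and of the immediate early response was not tested. With hypoxia in the libraries labelled β-arrestin 2 -/-, where 21.9% of all genes were called, 6 of 9 mesothelial and 7 of 14 fibroblast and matrix markers fell. Of the latter 1 rose (Tcf21, 0.87 ± 0.15, adjusted p = 0.00154). In that comparison 6 of 15 pericyte markers, 4 of 15 immediate early genes and 2 of 10 endothelial markers also rose. Markers that fell were 3 of 7 airway ciliated, 2 of 9 airway secretory, 1 of 7 skeletal muscle and 1 of 9 alveolar epithelial ones. Fibroblast and matrix markers summed to 5710 to 6580 CPM in normoxia and 3160 to 3820 in hypoxia, and mesothelial ones to 843 to 1060 and 397 to 544. The members' calls in that comparison were 11 with the cardiac and 8 with the airway secretory covariate, beside 3509 and 3367 of all genes, and Acta2, Actg2, Cnn1, Tagln, Csrp1, Tpm2 and Srf were all lower and called in both fits. The part of fibroblast, mesothelial or pericyte content in these results was not tested.

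**Figure D5:**
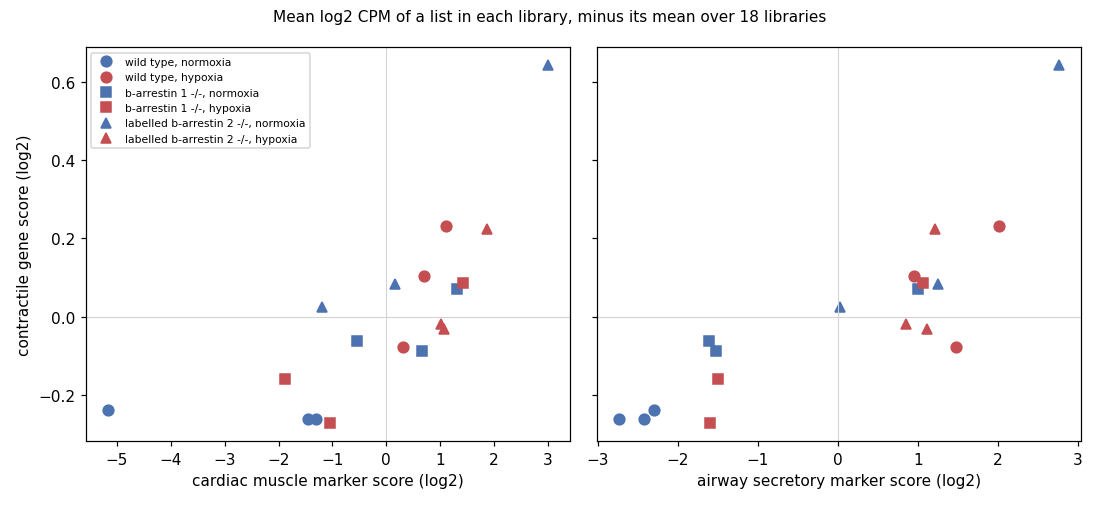
Score of the 33 contractile genes (y axis, log2; the mean log2 CPM of the list in a library minus its mean over 18 libraries) against the score of cardiac muscle markers (left x axis) and airway secretory markers (right x axis), 1 point per library. Labelled β-arrestin 2 -/- normoxia replicate 0 is the highest on all 3 scores (0.64 for the contractile genes and 2.76 for the airway secretory markers), and the wild type normoxia libraries are among the lowest.

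Whether hypoxia acted differently in a line than in wild type was tested as the difference of the responses. For β-arrestin 1 -/-, 0 members and 0.0% of all genes were called; 4 members had an unadjusted p below 0.05, and DESeq2 called 0 members and 9 genes. For the libraries labelled β-arrestin 2 -/-, 7 members had a lower response than in wild type and 0 a higher one, beside 6.05% of all genes called and 2.56% called lower. These were Cnn1 (-1.76 ± 0.43, adjusted p = 0.0293), Actg2 (-1.70 ± 0.41, adjusted p = 0.0271), Acta2 (-1.61 ± 0.34, adjusted p = 0.016), Tagln (-1.08 ± 0.25, adjusted p = 0.0253) and Smtn (-0.62 ± 0.18, adjusted p = 0.048) of the thin filament, with Srf (-0.84 ± 0.19, adjusted p = 0.0233) and Jph2 (-1.43 ± 0.38, adjusted p = 0.0398). All 7 were also among the 14 that were higher than in wild type in normoxia, a comparison that shares 6 libraries with this one. Acta2 kept its call in each of the 12 fits that left out 1 library. The count of members was 1 without wild type normoxia replicate 0, wild type normoxia replicate 1, wild type hypoxia replicate 2 or labelled β-arrestin 2 -/- hypoxia replicate 2, 2 without hypoxia replicate 1 of that line, 3 without its normoxia replicate 0 or wild type normoxia replicate 2, and 11 without its normoxia replicate 2. All genes called were 507, 313, 331 and 435 in the first 4 of these fits, 534, 413, 824 and 1034 in the others in that order, and 931 with all libraries. With the cardiac or the airway secretory score as a covariate 0 members were called, beside 154 and 0 genes in all. Both scores part wild type normoxia from wild type hypoxia and from labelled β-arrestin 2 -/- normoxia, so these fits cannot tell the covariate from the groups. Without labelled β-arrestin 2 -/- normoxia replicate 0 the differences were -1.15 for Acta2, -0.75 for Tagln and -0.84 for Srf, still called, and -1.18 for Actg2, -1.16 for Cnn1, -0.91 for Jph2 and -0.53 for Smtn, no longer called (adjusted p of 0.0536 to 0.124).

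Neighbouring parts of the contractile pathway were read from lists of genes that are not members. With hypoxia 4.76% of all genes were called in wild type, 2.95% in β-arrestin 1 -/- and 21.9% in the libraries labelled β-arrestin 2 -/-. Calls were thus more frequent in the last over all genes, and not in these lists alone. Of 23 genes of calcium, potassium and cGMP handling, 0 were called in wild type and in β-arrestin 1 -/-, and 7 rose and 1 fell in the libraries labelled β-arrestin 2 -/-. They included the calcium release channel gene Itpr2 (0.96 ± 0.16, adjusted p = 0.00105), the calcium store sensor gene Stim1 (0.69 ± 0.16, adjusted p = 0.00765) and Gucy1b3 (0.57 ± 0.14, adjusted p = 0.0101), a subunit of the nitric oxide receptor. This list shares Ryr2 and Pln with the cardiac markers. Of 18 cofactors of SRF and regulators of smooth muscle phenotype, 3 rose in wild type hypoxia, 1 in β-arrestin 1 -/- and 7 in the libraries labelled β-arrestin 2 -/-, and 0 fell. The Notch3 receptor gene of mural cells, also on the pericyte list, rose in wild type (0.74 ± 0.20, adjusted p = 0.0418) and in the libraries labelled β-arrestin 2 -/- (0.88 ± 0.20, adjusted p = 0.00624), where Mkl2, an SRF coactivator, rose too (0.46 ± 0.11, adjusted p = 0.0111). Of 16 nonmuscle relatives of contractile proteins 1, 1 and 3 rose in the same order and 2 fell, both in the libraries labelled β-arrestin 2 -/-. The intermediate filament gene Vim rose in wild type (0.45 ± 0.12, adjusted p = 0.043), in β-arrestin 1 -/- (0.48 ± 0.12, adjusted p = 0.041) and in the libraries labelled β-arrestin 2 -/- (0.35 ± 0.12, adjusted p = 0.0437), and Actb, the cytoplasmic β-actin gene often used as a reference, fell in the last (-0.60 ± 0.11, adjusted p = 0.00221). Against wild type in normoxia, where 9.49% of all genes were called, the line had 1 gene of the calcium list higher and 1 lower (Itpr2, -0.81 ± 0.16, adjusted p = 0.00933). Of the list of SRF cofactors 1 was higher and 3 were lower, among them Mkl2 (-0.61 ± 0.11, adjusted p = 0.0067). In hypoxia 0 genes of these 2 lists were called against wild type, beside 0.923% of all genes.

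In the authors' deposited table of Cuffdiff comparisons, members at a q-value below 0.05 numbered 9 higher with hypoxia in wild type, 2 lower in β-arrestin 1 -/- and 6 lower in the libraries labelled β-arrestin 2 -/-, beside 8.98%, 7.8% and 18.2% of the genes tested there. Where 0 members were called here, the authors' deposited table had 5 higher in β-arrestin 1 -/- than in wild type in normoxia (Jph2, Pcp4l1, Tpm1, Hspb6 and Aoc3; 4.33% of genes), 2 lower in hypoxia (Myh11 and Synpo2; 4.51%) and Acta2 lower in labelled β-arrestin 2 -/- hypoxia than in wild type hypoxia (5.28%). The calls made here were also in the authors' deposited table, in the same direction, for 3 of 3, for 5 of 7 in the libraries labelled β-arrestin 2 -/- and for 14 of 14 of their normoxic differences from wild type, where the authors' deposited table had 19 (beside 14.6% of genes). Of the 33 members, 16 were called in at least 1 of the comparisons made here beside 35.1% of all genes, and 17 in none, namely Myh11, Mylk, Myl6, Ppp1r12b, Ppp1r14a, Hspb6, Cald1, Cnn2, Synm, Synpo2, Pgm5, Actn1, Vcl, Flna, Itga8, Myocd and Mrvi1.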

How the data were processed

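Whole lung RNA of 18 libraries, 3 in each of 6 groups, was poly(A)-selected and prepared with the NEBNext Ultra RNA kit, per the labels' protocols; this kit marks no strand. The submitters' processing notes name FastQC, TopHat and Cuffdiff and the build mm10; neither their versions nor the annotation is given in the sources used here. Per the file headers, the authors deposited an estimated count (raw fragments) and an FPKM value per gene and library, with replicates kept apart; 93.3% of the estimated counts were whole. From the comparisons deposited by the authors, the p-value, q-value and sign of the test score were used.

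The estimated counts, rounded, were scaled by TMM and filtered with filterByExpr, which left 15388 genes. One model of the 6 groups was fitted in edgeR 4.0.16 (R 4.3.3), and contrasts were tested by quasi-likelihood F-tests; p-values were adjusted by the method of Benjamini and Hochberg over all these genes, and an adjusted p below 0.05 was called. The 5 features with status HIDATA were not used. CPM of single genes are scaled by TMM, while the CPM sums of marker lists are scaled by the library total alone. Log2 changes carry their SE. Coordinates are those of RefSeq on GRCm38 (mm10). The following alternatives were tried: DESeq2 1.42.0; its size factors within edgeR; testing unfiltered genes; limma 3.58.1 on log2 FPKM with a pseudocount of 1 or 0.1 and, except in 1 fit, a minimum FPKM of 1 in 3 libraries; fitting the compared groups alone; blocking on the replicate number; a cardiac muscle score as covariate; and omitting each library in turn. An airway secretory covariate and the omission of both libraries of lowest total were chosen after seeing the data.

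The members, the lists and the rule for named genes were chosen with earlier results of these data known. Every library's value is given for Acta2, Actg2, Myh11, Tagln, Cnn1, Myocd and Srf. Values of single libraries are also given for up to 10 called members per contrast with the smallest adjusted p. For several of these they are given in part of the groups only. Genes outside the members are at most 4 called genes per list and contrast, and both arrestin genes. A further gene list is not reported here. On simulated counts modelled on hypoxia in the libraries labelled β-arrestin 2 -/- (15388 genes), edgeR called 35.8% of genes changed 1.5-fold, 65.7% at 2-fold and 92.4% at 4-fold, and 2.27% of calls were false. In this simulation most changes of 1.5-fold went undetected. The genes changed were 67, 67 and 66 at these folds, drawn at random from all genes, while 21.9% of genes were called in the data. The adjustment is stricter when few genes change, and no outlying library was simulated. These shares therefore need not hold for the members or for these data. Figures were drawn with matplotlib 3.10.9.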

Additional observations from a re-analysis of the deposited data

Results flagged for a closer look

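In 7 members the response to hypoxia in the libraries labelled β-arrestin 2 -/- differed from that of wild type lung by a test of the difference itself (edgeR, adjusted p below 0.05), and each difference was negative. On the log2 scale it was -1.61 for Acta2, -1.70 for Actg2, -1.76 for Cnn1, -1.08 for Tagln, -0.62 for Smtn, -0.84 for Srf and -1.43 for Jph2. Acta2 kept this call in all 12 fits that left out 1 library, Tagln and Srf in 7, Actg2 and Cnn1 in 5, Jph2 in 3 and Smtn in 2. All 7 calls were lost with the cardiac muscle or the airway secretory score as a covariate. Both scores were lower in every wild type normoxia library than in wild type hypoxia and labelled β-arrestin 2 -/- normoxia. These fits therefore cannot tell the covariate from the groups. Labelled β-arrestin 2 -/- normoxia replicate 0, where the cardiac markers summed to 8010 CPM, enters each of these differences; without it they were -1.15 for Acta2, -1.18 for Actg2, -1.16 for Cnn1, -0.75 for Tagln, -0.53 for Smtn, -0.84 for Srf and -0.91 for Jph2, and 3 of the 7 (Acta2, Tagln and Srf) were called.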

How the results depend on the processing

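Each count of called members was recomputed under the alternatives. For hypoxia in wild type the count of 3 became 5 with DESeq2, 1 with limma on log2(FPKM + 1) with or without a filter, 6 with only the groups compared, 8 when both libraries of lowest total were omitted and 0 with either covariate; all genes called went from 733 to 1270, 582 and 578, 495, 1455, and 76 (cardiac) and 16 in these fits. For hypoxia in the libraries labelled β-arrestin 2 -/- the count of 7 became 11 with the cardiac score and 12 without the 2 libraries of lowest total, which also gave 1 call with hypoxia in β-arrestin 1 -/- (Lmod1) and 13 over the mean of genotypes (all genes called: 3370, 3509 and 3847; 445; 4376). The 14 calls of normoxia became 0 with either covariate (36 and 16 genes in all, against 1460). Both scores part wild type normoxia from the groups it was compared with here, so a call lost with a covariate does not show what it rested on. The 7 differences of response became 12 with DESeq2, 2 with limma without a filter and 0 with either covariate (1866, 690, 154 and 0 genes in all, against 931). With the airway secretory score as a covariate the sign turned for Jph2 with hypoxia in wild type (-0.17), and for Aoc3 (-0.20) and Tpm1 (-0.12) between the libraries labelled β-arrestin 2 -/- and wild type in normoxia, none of them then called; no other setting turned the sign of a called gene.

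Leaving out 1 library at a time gave 1 to 1 members for hypoxia in wild type, 5 to 7 for hypoxia in the libraries labelled β-arrestin 2 -/-, 2 to 17 for their normoxic difference from wild type, 1 to 11 for the difference of responses and 6 to 12 over the mean of genotypes. Of the single gene results under these fits 239 stayed past the threshold and 97 did not. Where a group kept 2 libraries its spread was shared with the other groups. With the replicate number as a block the counts were 2, 7, 12, 6 and 6 in that order. Of 45 pairs with the same number, 14 deviated together (correlation above 0.1, range -0.463 to 0.47). Pairs of different number were not compared, so whether the numbers pair any libraries was not tested. DESeq2's size factors shifted the median of all genes by at most 0.02. At this depth and with 3 libraries a group, a member not called may still have changed.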
